A study of Mus musculus with 9 samples.

Results

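Glutathione transferases join the tripeptide glutathione to reactive, mostly electrophilic, molecules, and 10 genes for them were followed here in haematopoietic stem cells (HSCs), the bone marrow cells from which all blood lineages arise. The genes were taken by symbol from the deposited table of expression, in which all 10 were found among 46626 genes. They comprise the mu class genes Gstm1, Gstm2, Gstm4 and Gstm5, the pi class gene Gstp1, the theta class gene Gstt1, the alpha class gene Gsta4, the kappa class gene Gstk1, the omega class gene Gsto1 and the membrane-bound Mgst1. They were chosen by their family with RPKM values and comparisons of these 9 libraries in view, so their levels and changes are given as a description, and their counts support nothing. About 2000 HSCs were sorted per sample from the marrow of C57BL/6 mice, and total RNA was amplified and sequenced. The 9 libraries form 3 groups of 3: old mice of 15 to 20 months given BRL37344, old mice of 15 to 20 months given saline, and young mice of 2 months given saline. BRL37344 activates the β3-adrenergic receptor, through which sympathetic nerves act on their targets, and was delivered at 2.4 mg per kg per day by an osmotic pump for 12 weeks with a change of pump at 6 weeks. All 3 groups were treated for that time, so an age of 2 months for the young group is not its age when the HSCs were sorted. When the ages were taken is not stated, and the old groups may also have been older at sorting. The series concerns the loss of adrenergic nerves from the marrow and the ageing of the HSC niche. Whether the 3 libraries of a group stem from different mice is not stated, and a p-value therefore reflects the variation among these libraries, some of which may be technical.

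The soluble transferases act as dimers in the cytosol, and each class prefers other substrates, from products of lipid peroxidation to drugs and haloalkanes. The conjugates leave the cell through ATP-driven export pumps and are cut down to mercapturates. Several of the genes are known targets of the transcription factor NRF2, which binds antioxidant response elements together with small MAF proteins when its inhibitor KEAP1 is modified by electrophiles. HSCs are known to keep low levels of reactive oxygen species, and glutathione-linked enzymes are among their defences.

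The mu class genes lie side by side on chromosome 3. In the GRCm38 (mm10) annotation of GENCODE M21, Gstm5 spans chr3:107895821-107898686 on the plus strand, and Gstm2 (chr3:107981702-107986453), Gstm1 (chr3:108012255-108017973) and Gstm4 (chr3:108040408-108044894) lie on the minus strand. Gstm7 (chr3:107926334-107931817, minus strand), a mu class gene outside the 10, sits between Gstm5 and Gstm2. The promoters of 3 of these genes are given here because the neighbours had unlike patterns over the libraries, and that of Mgst1 (gene at chr6:138140316-138156755, plus strand) because it had the most negative change of the 10 genes. Each is the 250 bases before a RefSeq transcript start on GRCm38.p6, written 5′ to 3′ on the gene's strand. The intervals are chr3:107986421-107986670 for Gstm2, chr3:108017974-108018223 for Gstm1, chr3:107895604-107895853 for Gstm5 and chr6:138140277-138140526 for Mgst1. Capitals mark matches to the core of the antioxidant response element, TGACNNNGC, or to the AP-1 site, TGANTCA, on either strand.
Gstm2: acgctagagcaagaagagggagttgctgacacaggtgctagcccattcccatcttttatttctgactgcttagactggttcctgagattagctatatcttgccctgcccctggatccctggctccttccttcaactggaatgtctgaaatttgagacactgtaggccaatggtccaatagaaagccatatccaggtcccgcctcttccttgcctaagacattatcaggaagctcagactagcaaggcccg
Gstm1: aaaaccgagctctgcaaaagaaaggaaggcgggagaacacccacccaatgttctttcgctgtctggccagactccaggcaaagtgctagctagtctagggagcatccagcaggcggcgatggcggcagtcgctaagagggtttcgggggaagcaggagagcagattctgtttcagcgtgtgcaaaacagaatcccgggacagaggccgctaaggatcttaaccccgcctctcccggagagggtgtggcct
Gstm5: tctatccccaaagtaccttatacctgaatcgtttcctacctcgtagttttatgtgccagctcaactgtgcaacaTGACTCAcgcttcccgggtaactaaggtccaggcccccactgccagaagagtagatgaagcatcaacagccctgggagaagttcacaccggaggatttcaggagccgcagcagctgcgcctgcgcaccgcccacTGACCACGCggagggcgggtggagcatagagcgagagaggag
Mgst1: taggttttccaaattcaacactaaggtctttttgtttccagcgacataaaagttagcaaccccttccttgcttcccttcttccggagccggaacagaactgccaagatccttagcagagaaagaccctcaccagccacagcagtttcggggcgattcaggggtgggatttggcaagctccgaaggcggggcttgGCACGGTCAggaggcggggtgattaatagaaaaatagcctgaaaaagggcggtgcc
The Gstm5 promoter held a response element core 42 bases and an AP-1 site 176 bases before the start, and the Mgst1 promoter held a core on the opposite strand 56 bases before it. The Gstm2 and Gstm1 windows held neither, and nor did a further RefSeq window of Mgst1. The Mgst1 window shown reaches past the GENCODE start of the gene, so its match lies inside the annotated gene. RefSeq gave 12 such windows for 9 of the 10 genes, and the only other match was an AP-1 site in Gstp1, 74 bases before the start. Of 32851 promoter windows of the same length, 10.2% held the response element core and 6.75% the AP-1 site. The cyclic AMP response element TGACGTCA, the binding site of CREB, was in none of the members' windows and in 1.55% of all windows. No overlap between the motifs was found in the members' windows, and a match describes letters only.

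The deposited values are RPKM, reads scaled for transcript length and library size, and the depth read from the steps between low values was, in units of 1000000 reads, between 16.0 and 44.9 for BRL37344 old, between 15.3 and 41.4 for saline old and between 12.2 and 22.4 for saline young. Of 10 HSC markers checked, 9 were above 1 RPKM in all libraries and Ctnnal1 was under it in some libraries of each group, with summed levels of 735 to 1159 RPKM in BRL37344 old, 791 to 928 in saline old and 860.0 to 1084 in saline young. Neutrophil markers were detected as well, and none of the 11 stayed under 1 RPKM. Their summed level was 183, 5764 and 1850.1 RPKM in the BRL37344 old libraries 1, 2 and 3, 682 to 909 in saline old and 1086, 1740.2 and 19614 in the saline young libraries. The libraries highest in them, saline young 3 and BRL37344 old 2, were left out together as an alternative added after these values were seen. Summed megakaryocyte and platelet markers (9 of 10 in the table) were 495, 410.3 and 953 RPKM in BRL37344 old, 628 to 842 in saline old and 249 to 387 in saline young. Summed endothelial markers were 82.1 to 98.7 RPKM in BRL37344 old, 106 to 112 in saline old and 85.5 to 100.1 in saline young. In saline old against saline young, 1 of the 5 tested, Cldn5, rose, where 1.18% of all genes did. The other 4 had a negative log2 change, and the median of the 5 was -0.11. Summed T and NK cell markers were 112 to 250 RPKM in BRL37344 old, 107 to 236 in saline old and 113 to 166 in saline young. Of the 3 tested, 2 had a positive and 1 a negative log2 change in saline old against saline young. Only Klrb1c rose, where 1.18% of all genes did. B cell, T and NK cell, mast cell, endothelial and stromal lists had from 2 to 7 markers each under 1 RPKM in every library of a group.

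All 10 transferase genes exceeded 1 RPKM in all 9 libraries, so none passed the filter on low values through a single group. Levels can be set against each other because RPKM is per length. Gstm1 and Gsto1 were the most abundant in every group. Gstm1 averaged 479 ± 108 RPKM in BRL37344 old, 425 ± 31.0 in saline old and 290.3 ± 7.06 in saline young (SD, n = 3 each). Gsto1, which reduces disulphides and dehydroascorbate rather than mainly conjugating, averaged 267 ± 6.25 RPKM in BRL37344 old, 281 ± 13.0 in saline old and 269 ± 10.3 in saline young (SD, n = 3 each). In each group the lowest Gstm1 library stood above the highest Gsto1 library, and Gsto1 stood likewise above all the rest.

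Below them the order differed between the groups. In BRL37344 old HSCs, Gstp1, Gstm5, Mgst1, Gstm2 and Gstt1 followed in that order of means with overlapping neighbours, and Gsta4, Gstm4 and Gstk1 came last, also overlapping. In saline old HSCs, Gstm5, Gstp1 and Gstm2 came next and overlapped as neighbours, Gstt1 and Mgst1 overlapped below them, and Gstk1, Gstm4 and Gsta4 lay lowest between 29.3 and 31.3 RPKM on average. In saline young HSCs, Mgst1, Gstp1 and Gstm5 overlapped next, Gstm4, Gstk1, Gsta4 and Gstt1 lay between 25.8 and 30.6 RPKM on average with overlapping neighbours, and Gstm2 was lowest, apart from all of them. Gstm2 thus ranked 5 of the 10 in saline old HSCs and 10 in saline young HSCs, while Mgst1 ranked 7 in saline old and 3 in saline young.

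**Figure D1:**
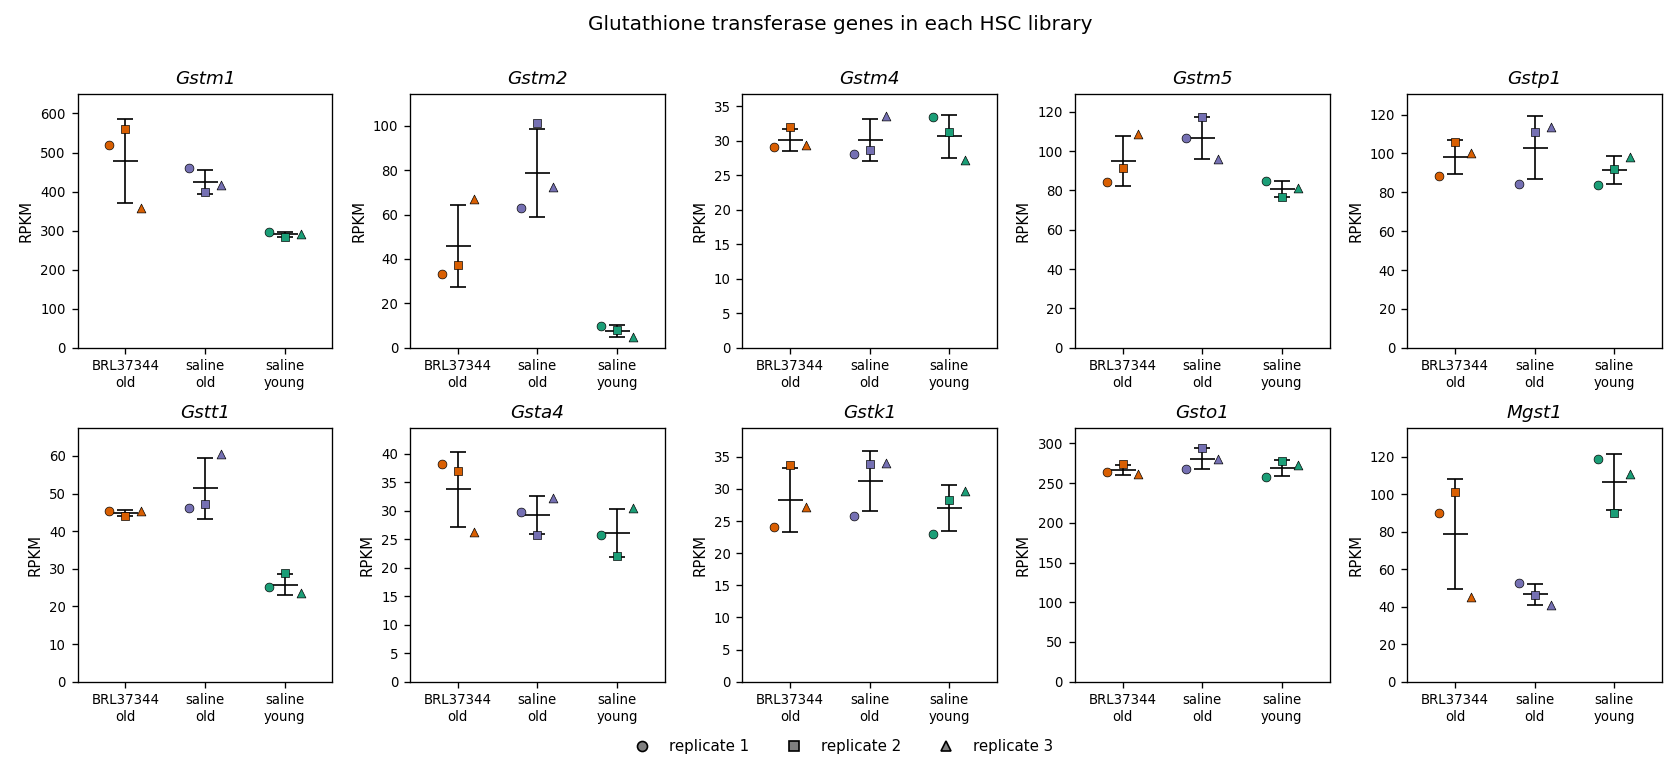
Level of each glutathione transferase gene in RPKM (y axis, from 0) in the 3 libraries of BRL37344 old, saline old and saline young HSCs; symbols are libraries, lines the mean and bars ± 1 SD. Gstm2 and Gstt1 were higher in every old library than in every saline young one, Mgst1 was lower in every saline old library than in every saline young one, and the libraries of Gsto1, Gstm4 and Gstp1 overlapped between the groups.

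Gstm2 encodes a mu class enzyme whose human counterpart is known for conjugating the quinones formed from dopamine. Its level was 33.4, 37.3 and 67.1 RPKM in the BRL37344 old libraries 1, 2 and 3, 62.8, 101 and 72.5 RPKM in the saline old libraries and 9.87, 8.20 and 4.79 RPKM in the saline young libraries. Every old library, with either treatment, stood above every young one, and the BRL37344 libraries 1 and 2 stood below all of saline old. Between saline old and saline young HSCs, the mean log2 change of RPKM plus a pseudocount of 0.5 was 3.31 ± 0.31 (SE), with an adjusted p = 0.000617 by limma over all 13516 genes tested. In the 20 alternative settings tried for this comparison, it lay between 3.03 and 3.61 and stayed past the threshold of 0.05 in all of them.

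Gstm1, the most abundant member, had 519.7, 561 and 357 RPKM in the BRL37344 old libraries, 459.9, 399.9 and 416 RPKM in the saline old libraries and 296, 282 and 293 RPKM in the saline young libraries. Saline old and saline young did not overlap, and BRL37344 library 3 was the lowest of the 6 old libraries. The log2 change between saline old and saline young was 0.55 ± 0.15 and did not pass (limma adjusted p = 0.132). Without BRL37344 library 3, which adds to the estimate of spread, it passed at an adjusted p = 0.0141.

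Gstm5 had 84.3, 91.5 and 109 RPKM in BRL37344 old, 107, 118 and 96.2 RPKM in saline old and 84.9, 76.6 and 81.2 RPKM in saline young. The saline groups did not overlap, with a log2 change of 0.39 ± 0.12 that did not pass (limma adjusted p = 0.170). Gstm4, the mu class neighbour of Gstm1, had the flattest profile of the class. It averaged 30.2 ± 1.61 RPKM in BRL37344 old, 30.1 ± 2.998 in saline old and 30.6 ± 3.13 in saline young (SD, n = 3 each). Its libraries overlapped in every comparison, and its log2 change between saline old and saline young was -0.02, beside 3.31 for Gstm2 in the same cluster.

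Gstt1, a theta class enzyme known in humans for acting on small halogenated compounds, had 45.2, 44.0 and 45.4 RPKM in BRL37344 old, 46.3, 47.3 and 60.6 RPKM in saline old and 25.1, 28.8 and 23.6 RPKM in saline young. The 6 old libraries lay above all 3 young ones. Between saline old and saline young the log2 change was 0.97 ± 0.14 (limma adjusted p = 0.00673). Leaving out saline young 3 and BRL37344 old 2 together gave 0.91 with an adjusted p = 0.0707.

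Mgst1 encodes a transferase and peroxidase of the endoplasmic reticulum and outer mitochondrial membrane, unrelated in sequence to the soluble classes. Its level was 90.1, 101 and 45.3 RPKM in the BRL37344 old libraries 1, 2 and 3, 52.5, 46.4 and 41.2 RPKM in the saline old libraries and 119, 89.9 and 111 RPKM in the saline young libraries. All saline old libraries were below all saline young ones, while BRL37344 libraries 1 and 2 lay among the young values and library 3 among the saline old ones. The log2 change between saline old and saline young was -1.18 ± 0.26 and missed the threshold (limma adjusted p = 0.0613). It passed without BRL37344 library 3 (adjusted p = 0.00279) and in a fit of the 2 saline groups alone (adjusted p = 0.00821), and the adjusted p was 0.202 without saline young 3. Summed neutrophil markers, and summed monocyte and macrophage markers, were lower in each saline old library than in each saline young one. Neutrophil sums were 183, 5764 and 1850.1 RPKM in the BRL37344 old libraries 1, 2 and 3. They were 682 to 909 RPKM in saline old and 1086, 1740.2 and 19614 RPKM in the saline young libraries 1, 2 and 3. The lowest library in them, BRL37344 old 1, had Mgst1 at 90.1 RPKM, and the highest, saline young 3, at 111 RPKM. Monocyte and macrophage sums were 593 to 874 RPKM in BRL37344 old, 547 to 694 in saline old and 705 to 1778 in saline young. All 9 tested monocyte and macrophage markers had a negative log2 change between saline old and saline young, with a median of -1.15. Of these, 1, Fcgr1, fell, where 0.400% of all genes did. Fcgr1 was under 1 RPKM in every old library, so it entered the test through saline young and supports nothing. The part of both lists in the Mgst1 values was not tested.

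The remaining members overlapped between saline old and saline young. Gsta4, which conjugates the lipid peroxidation product 4-hydroxynonenal, averaged 33.8 ± 6.57 RPKM in BRL37344 old, 29.3 ± 3.29 in saline old and 26.1 ± 4.26 in saline young (SD, n = 3 each). Gstk1, a transferase of mitochondria and peroxisomes, averaged 28.3 ± 4.94 RPKM in BRL37344 old, 31.3 ± 4.70 in saline old and 27.0 ± 3.57 in saline young (SD, n = 3 each). Gstp1, a pi class enzyme that also binds the kinase JNK, averaged 98.0 ± 8.75 RPKM in BRL37344 old, 103 ± 16.3 in saline old and 91.4 ± 7.14 in saline young (SD, n = 3 each). With Gsto1 and Gstm4, these genes had log2 changes between -0.02 and 0.21 in saline old against saline young.

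In all, 2 of the 10 genes passed the test between saline old and saline young, Gstm2 and Gstt1, both higher in old, where 1.58% of all genes tested passed, 1.18% higher and 0.400% lower in saline old. The groups did not overlap for 5 of the 10, 4 higher and 1 lower in saline old, and for 20.3% of all genes, 9.39% higher and 10.9% lower. The median log2 change of the 10 genes was 0.19, beside -0.02 over all genes tested. Because the genes were picked with these results known, nothing is read from these counts.

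**Figure D2:**
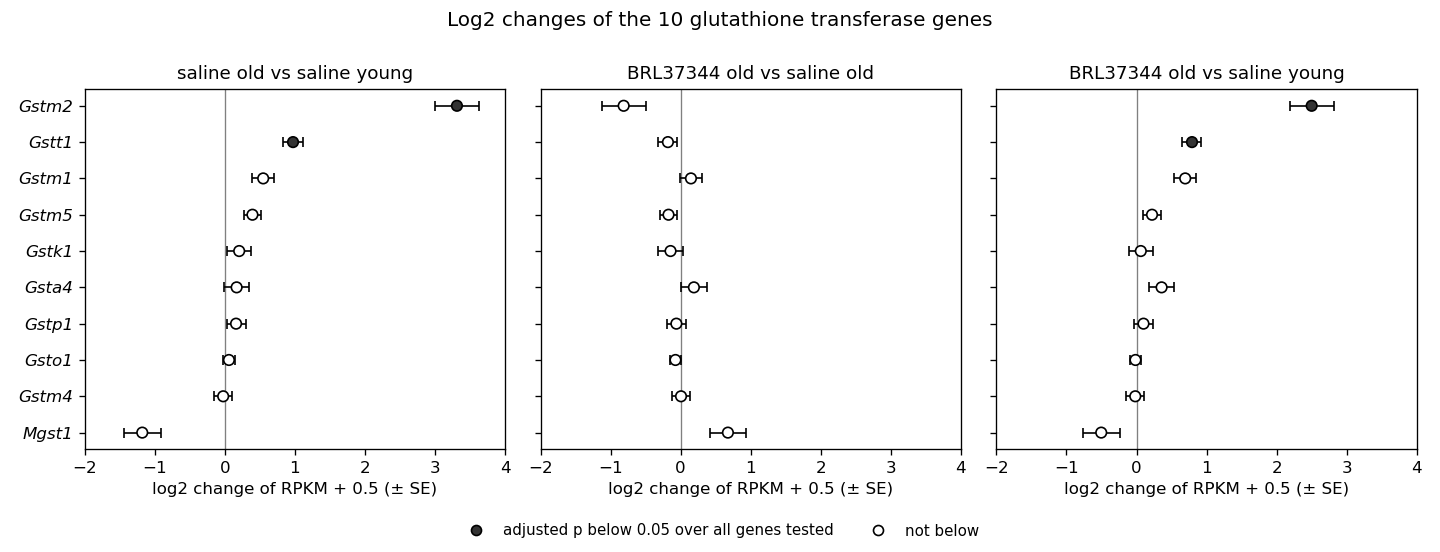
Log2 change of RPKM plus 0.5 (x axis) with its SE for each of the 10 genes in the 3 comparisons; filled points passed a limma adjusted p of 0.05 over all genes tested, open points did not. Gstm2 and Gstt1 are filled in both comparisons with saline young, and no point is filled between BRL37344 old and saline old.

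BRL37344 old HSCs were set against saline old HSCs to ask what the agonist did to old cells. None of the 10 transferase genes passed the limma test in this comparison, and neither did any of the 13516 genes (0%). At an unadjusted p under 0.05 there were 2 members, Gstm2 and Mgst1, where 762 genes, 5.64% of all, lay. Gstm2 had a log2 change of -0.81 ± 0.31 and Mgst1 one of 0.67 ± 0.26, each with a limma adjusted p = 0.839. Both ran against the direction of their difference between saline old and saline young; the comparisons share the saline old libraries, so this is not independent.

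Those values came from BRL37344 libraries 1 and 2. In both, Gstm1, Gsta4 and Mgst1 were above all saline old libraries and Gstm2, Gstm5 and Gstt1 were below them. In library 3, none of the 10 genes was above saline old, Gstm1, Gstt1 and Gsto1 were below it and the other 7 lay within it. How many of all genes lay outside the saline old range in each of these libraries was not counted. Nothing is therefore read from the number of members outside it. Without library 3, the log2 change of Mgst1 between BRL37344 old and saline old was 1.03 with a limma adjusted p = 0.0353, and Gstm2 did not pass. In that fit 39 of all 13516 genes tested passed, against 0 with every library. It was the only 1 of the 20 alternatives in which Mgst1 passed this comparison. Without library 2, Mgst1 had a log2 change of 0.46.

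Library 3 was the highest BRL37344 old library in megakaryocyte and platelet markers and in depth, and the lowest in HSC markers. In summed neutrophil markers it lay between libraries 1 and 2, at 1850.1 RPKM against 183 and 5764 RPKM. Its summed megakaryocyte and platelet markers were 953 RPKM, against 495 and 410.3 RPKM in libraries 1 and 2, so they were high where Gstm2 was high and Mgst1 low. Its implied depth, in units of 1000000 reads, was 44.9, against 16.0 and 33.5 in libraries 1 and 2. Summed HSC markers were 735 RPKM in library 3, against 1122 and 1159 RPKM in libraries 1 and 2. The part of these in the transferase values was not tested, and in such bulk samples fewer cells of a type and less RNA per cell cannot be told apart.

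Gstt1 was the only member whose libraries did not overlap between BRL37344 old and saline old, where 10.1% of all genes did not overlap, 5.28% being lower in BRL37344 old. It was lower in all 3 BRL37344 libraries, with a log2 change of -0.18 ± 0.14 (limma adjusted p = 0.860), and the highest BRL37344 value, 45.4 RPKM, lay next to the lowest saline old value, 46.3 RPKM. The log2 changes of Gstm1, Gsta4, Gstm4, Gstp1, Gsto1, Gstk1 and Gstm5 lay between -0.17 and 0.19, each with overlapping libraries.

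Against saline young, BRL37344 old HSCs had 2 of the 10 genes past the test, again Gstm2 and Gstt1, where 0.769% of all genes passed, 0.695% higher in BRL37344 old. Gstm2 had a log2 change of 2.501 ± 0.31 (limma adjusted p = 0.00517), beside 3.31 for saline old against the same young libraries. Gstt1 had one of 0.79 ± 0.14 (limma adjusted p = 0.0263). The Gstt1 call was lost when any BRL37344 or saline young library, or saline old 2, was left out (adjusted p from 0.0529 to 0.123), while its log2 change stayed between 0.73 and 0.87.

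Gstm1 did not overlap between BRL37344 old and saline young either, with a log2 change of 0.70 ± 0.15 (limma adjusted p = 0.0970), and without BRL37344 library 3 it passed at 0.89 (adjusted p = 0.00367). In all, 3 of the 10 genes, each higher in BRL37344 old, did not overlap, where 15.2% of all genes did not, 7.29% being higher. Mgst1 had a log2 change of -0.50 ± 0.26 (limma adjusted p = 0.599), and its libraries overlapped.

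Summed over the 10 genes, transferase RNA amounted to 1216, 1317 and 1068 RPKM in BRL37344 old, 1164, 1206 and 1180.3 RPKM in saline old and 959, 937 and 972 RPKM in saline young. The old libraries all lay above the young ones, and those of BRL37344 spanned a wider range than those of saline old. The 4 mu class genes made up 54.8%, 54.8% and 52.6% of the sum in BRL37344 old, 56.5%, 53.7% and 52.4% in saline old and 44.2%, 42.5% and 41.8% in saline young. Mgst1 made up 7.41%, 7.68% and 4.24% in BRL37344 old, 4.51%, 3.85% and 3.49% in saline old and 12.4%, 9.59% and 11.4% in saline young. The mu class share was higher in every old library than in every young one, and the Mgst1 share was lower.

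**Figure D3:**
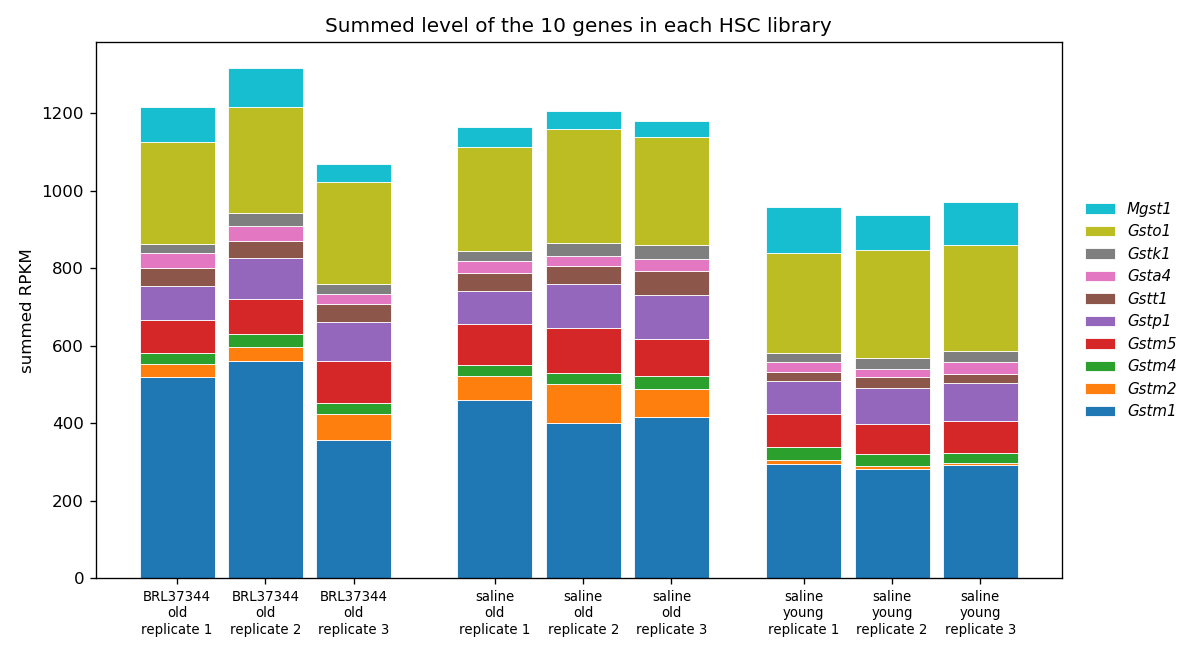
RPKM of the 10 glutathione transferase genes stacked for each library (y axis, summed RPKM from 0; x axis, the 9 libraries by group). The saline young bars end between 937 and 972 RPKM and the old bars between 1068 and 1317 RPKM; the Gstm1 and Gstm2 segments are taller in old libraries, and the Mgst1 segment is thinnest in the saline old libraries and BRL37344 library 3.

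The balance inside the mu class differed between libraries as well. The ratio of Gstm1 to Gstm2 in RPKM was 15.6, 15.1 and 5.31 in the BRL37344 old libraries 1, 2 and 3, 7.32, 3.95 and 5.75 in saline old and 30.0, 34.4 and 61.1 in saline young. BRL37344 libraries 1 and 2 lay between the saline old and the saline young ratios, and library 3 lay within saline old. No test was made of this ratio, since its genes were chosen with their values known.

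Some members share sequence with other genes, which can split or merge reads. Of the stretches of 50 bases in Gstm1 transcripts (GENCODE M21), 18.9% occurred in transcripts of other genes, 14.1% in the processed pseudogene Gstm2-ps1 (chr5:116632908-116633564, minus strand). Gstm2-ps1 was listed at 113 ± 25.2 RPKM in BRL37344 old, 104 ± 16.3 in saline old and 73.1 ± 3.13 in saline young (SD, n = 3 each), and in every library it stood at 0.214 to 0.264 of the Gstm1 level. For Gstp1 the shared part was 33.7%, all of it in Gstp2, which was listed at no more than 0.344 RPKM. It was 9.44% for Gstm5, shared with 4933431E20Rik, and 5.65% for Gstm2. Gstm4, Gstt1, Gsta4, Gstk1, Mgst1 and Gsto1 shared no such stretch. The read length and the handling of reads with several matches are not given in the sources used here. Levels of Gstm1, Gstp1, Gstm5 and Gstm2 are therefore less certain than those of the members sharing no such stretch.

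Among 21 further genes of the soluble and membrane-bound transferase families, 19 were in the table and 12 were tested. Between saline old and saline young, 2 of the 12 rose, Gstm7 and Hpgds, and none fell, where 1.58% of all genes tested passed, 1.18% higher. Gstm7, which lies between Gstm5 and Gstm2, had 27.5, 24.2 and 23.3 RPKM in BRL37344 old, 23.8, 23.2 and 21.6 RPKM in saline old and 9.17, 11.6 and 11.9 RPKM in saline young. All old libraries were above all young ones, with a log2 change of 1.04 ± 0.15 in saline old against saline young (limma adjusted p = 0.00847) and of 1.17 ± 0.15 in BRL37344 old against saline young (limma adjusted p = 0.00559). Without saline young 3 and BRL37344 old 2, the adjusted p values were 0.0507 and 0.0706.

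Hpgds, the sigma class transferase that makes prostaglandin D in blood cells, had 13.5, 14.4 and 8.62 RPKM in BRL37344 old, 12.4, 12.2 and 10.6 RPKM in saline old and 4.08, 3.49 and 4.59 RPKM in saline young. It rose in both, by a log2 change of 1.43 ± 0.23 in saline old against saline young (limma adjusted p = 0.0113) and of 1.45 ± 0.23 in BRL37344 old against saline young (limma adjusted p = 0.0148). The first call was lost without saline old 2 (adjusted p = 0.0626), without saline young 2 (adjusted p = 0.0586) or without saline young 3 and BRL37344 old 2 together (adjusted p = 0.0609). The second was lost without BRL37344 old 1 or 2 or saline young 1 or 2 (adjusted p from 0.0537 to 0.0770), in a fit of the 2 groups alone (adjusted p = 0.0541) and without saline young 3 and BRL37344 old 2 together (adjusted p = 0.175). None of the 12 genes passed between BRL37344 old and saline old.

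The theta class neighbours of Gstt1 on chromosome 10 differed less than Gstt1 itself. Gstt3 averaged 36.0 ± 4.23 RPKM in BRL37344 old, 38.5 ± 1.17 in saline old and 28.6 ± 3.12 in saline young, and Gstt2 averaged 29.6 ± 0.43 RPKM in BRL37344 old, 28.3 ± 0.45 in saline old and 25.8 ± 0.65 in saline young (SD, n = 3 each). Both were higher in every saline old library than in every saline young one, as were 9.39% of all genes tested. Gstt2 was also higher in BRL37344 old, at 29.3 to 30.1 RPKM, than in saline old, at 27.9 to 28.8 RPKM. Between those groups 10.1% of all genes did not overlap, in either direction. Between saline old and saline young, the log2 changes of Gstt3 and Gstt2 were 0.43 ± 0.13 (limma adjusted p = 0.162) and 0.13 ± 0.11 (limma adjusted p = 0.634). They did not pass. The membrane-bound relatives of Mgst1 did not pass either. Mgst2 averaged 6.29 ± 1.70 RPKM in BRL37344 old, 5.598 ± 1.04 in saline old and 8.09 ± 9.77 in saline young (SD, n = 3 each), and its young libraries ran from 1.09 to 19.3 RPKM, too wide to give a direction. Mgst3 had a log2 change of 0.08 between saline old and saline young, the leukotriene C4 synthase Ltc4s one of -0.52 (limma adjusted p = 0.438), the prostaglandin E synthase Ptges one of 0.57 (limma adjusted p = 0.474), and Alox5ap, a partner of leukotriene synthesis with no transferase activity, one of -0.03. Gstz1, an enzyme of tyrosine breakdown, and Gsto2 and Gstcd had log2 changes of -0.11, -0.32 and -0.33.

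Ptges had the smallest unadjusted p of these 12 genes between BRL37344 old and saline old. It had 3.71, 1.71 and 3.90 RPKM in BRL37344 old, 5.56, 7.99 and 5.14 RPKM in saline old and 5.73, 3.02 and 3.58 RPKM in saline young. The 2 old groups did not overlap, with a log2 change of -0.94 ± 0.34 that did not pass (limma adjusted p = 0.839). The 7 genes that were in the table but not tested were Gsta1, Gsta2, Gsta3, Gstm3, Gstm6, Gstp2 and Gstt4, all too low.

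**Figure D4:**
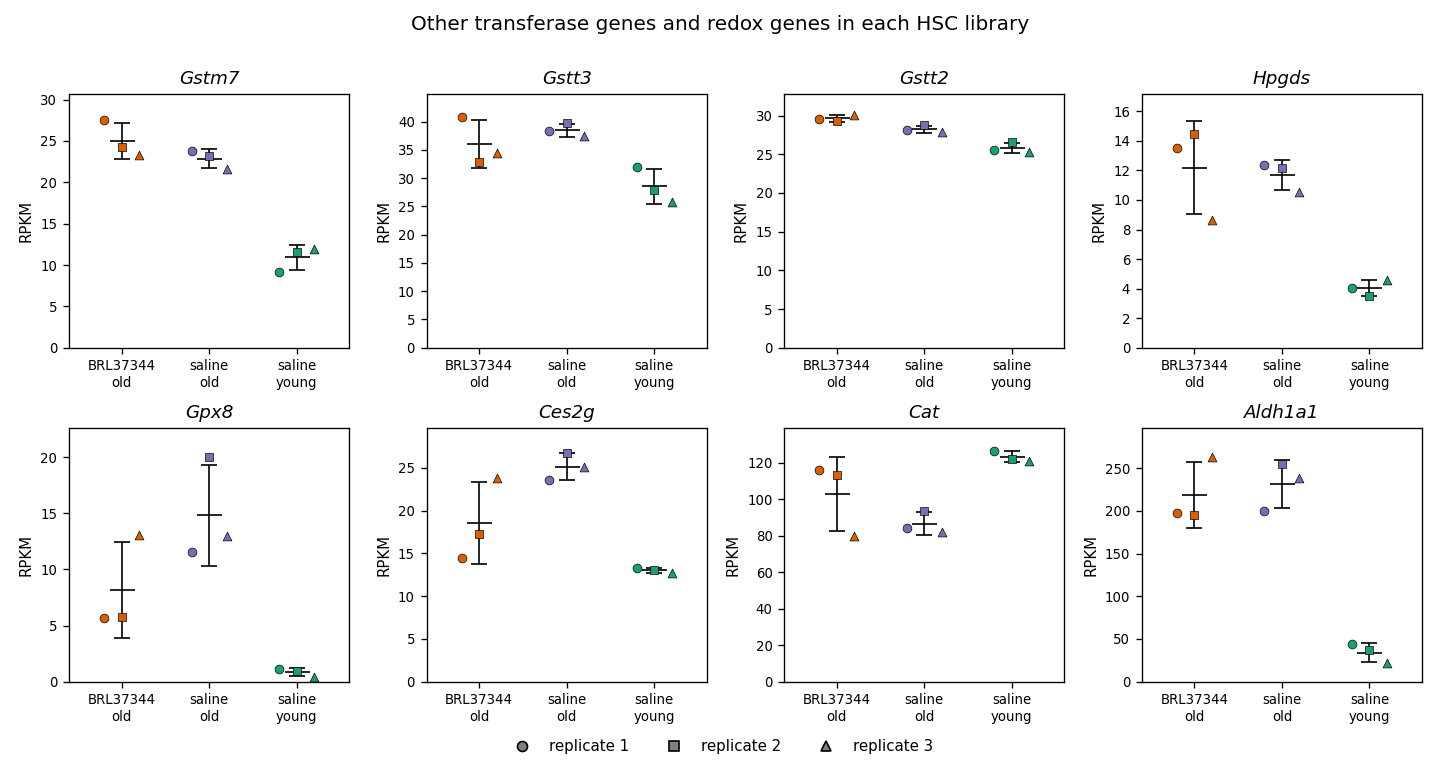
RPKM (y axis, from 0) of 4 further transferase genes and 4 redox genes in the 3 libraries of BRL37344 old, saline old and saline young HSCs; symbols are libraries, lines the mean and bars ± 1 SD. Gstm7, Hpgds, Gpx8 and Aldh1a1 are higher in every old library than in every young one, and Cat is highest in saline young.

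The other genes of glutathione metabolism were followed in lists chosen for their roles. Of the 15 tested genes of glutathione synthesis and recycling, none passed in any comparison. The smallest p between saline old and saline young belonged to Chac2, which breaks glutathione down, at a log2 change of 0.70 ± 0.20 (limma adjusted p = 0.135), and to Gsr, which reduces the oxidised form, at -0.78 ± 0.34 (limma adjusted p = 0.327). Both subunits of the rate-limiting glutamate-cysteine ligase were expressed; Gclm averaged 68.5 ± 31.2 RPKM in BRL37344 old, 77.7 ± 74.3 in saline old and 77.6 ± 20.8 in saline young (SD, n = 3 each), so its saline old libraries varied too widely to compare. Of the 11 tested genes of conjugate export and mercapturate formation, none passed in any comparison, with Lap3, a leucine aminopeptidase, at -1.78 ± 0.75 (limma adjusted p = 0.303) and Ggt5, a gamma-glutamyltransferase, at 0.48 ± 0.25 (limma adjusted p = 0.403).

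Among 14 tested glutathione peroxidase, glutaredoxin and related genes, 1 rose in saline old against saline young, where 1.18% of all genes did. This was Gpx8, a peroxidase of the endoplasmic reticulum membrane, which had 5.66, 5.79 and 13.1 RPKM in BRL37344 old, 11.6, 20.0 and 13.0 RPKM in saline old and 1.11, 0.949 and 0.436 RPKM in saline young. Its log2 change was 3.53 ± 0.37 in saline old against saline young (limma adjusted p = 0.000943) and 2.64 ± 0.37 in BRL37344 old against saline young (limma adjusted p = 0.00789). BRL37344 libraries 1 and 2 were below all saline old libraries and library 3 was not, as for Gstm2, and the log2 change between BRL37344 old and saline old was -0.89 ± 0.37 (limma adjusted p = 0.839). Without saline young 3 and BRL37344 old 2, the BRL37344 old call was lost (adjusted p = 0.0807) and the saline old one was not (log2 change 3.29, adjusted p = 0.0114). Gpx8 reached 1 RPKM in every old library but in 1 of the 3 young ones, so it entered the test through the groups where it is high and supports nothing. The secreted Gpx3 had the next smallest p, at a log2 change of 1.61 ± 0.48 between saline old and saline young (limma adjusted p = 0.155).

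None of the 18 tested thioredoxin, peroxiredoxin, superoxide dismutase and catalase genes passed in any comparison. Cat, the catalase that breaks down hydrogen peroxide, had 116, 113 and 79.7 RPKM in BRL37344 old, 84.1, 93.8 and 82.1 RPKM in saline old and 127, 122 and 121 RPKM in saline young. As for Mgst1, saline old lay below saline young in every library, as did 10.9% of all genes, and BRL37344 libraries 1 and 2 stood apart from library 3. The log2 change of Cat between saline old and saline young was -0.51 ± 0.14 (limma adjusted p = 0.132). Txnrd3, a thioredoxin reductase, had one of -0.54 ± 0.18 (limma adjusted p = 0.206).

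None of the 11 tested NRF2 regulators passed. Nfe2l2, which encodes NRF2, averaged 67.5 ± 8.63 RPKM in BRL37344 old, 70.8 ± 9.33 in saline old and 59.2 ± 6.03 in saline young (SD, n = 3 each), with a log2 change of 0.25 ± 0.14 between the saline groups (limma adjusted p = 0.431). The small MAF gene Maff had one of -0.57 ± 0.29 (limma adjusted p = 0.383). Of 17 tested NRF2 targets outside the glutathione lists, 1 rose in saline old against saline young (1.18% of all genes did), the carboxylesterase gene Ces2g, at a log2 change of 0.92 ± 0.18 (limma adjusted p = 0.0354). That call was lost without BRL37344 old 2, saline old 2, saline old 3 or any saline young library (adjusted p from 0.0586 to 0.151), without the filter on level (adjusted p = 0.0813), with a replicate block (adjusted p = 0.0572) and without saline young 3 and BRL37344 old 2 together (adjusted p = 0.201). The carbonyl reductase Cbr3 had a log2 change of 0.76 ± 0.24 (limma adjusted p = 0.181), and Nqo1, the quinone reductase often read as an NRF2 target, averaged 19.1 ± 4.28 RPKM in BRL37344 old, 20.3 ± 2.98 in saline old and 15.0 ± 1.35 in saline young (SD, n = 3 each).

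Among 13 tested aldehyde dehydrogenases, which oxidise some of the same lipid peroxidation aldehydes, 2 rose in saline old against saline young, where 1.18% of all genes did. Aldh1a1, which also oxidises retinaldehyde, had 197, 195 and 263 RPKM in BRL37344 old, 199.9, 255 and 238 RPKM in saline old and 43.6, 36.6 and 22.0 RPKM in saline young. All old libraries were far above the young ones, with a log2 change of 2.79 ± 0.23 in saline old against saline young (limma adjusted p = 0.000209) and of 2.70 ± 0.23 in BRL37344 old against saline young (limma adjusted p = 0.000629). Aldh3a1 reached 2.09, 0.801 and 3.68 RPKM in BRL37344 old, 6.36, 3.27 and 1.61 RPKM in saline old and 0.324, 0.0004 and 0.205 RPKM in saline young, where 0.0004 is the offset the table gives to a gene without reads. Its log2 change of 2.52 ± 0.52 in saline old against saline young passed narrowly (limma adjusted p = 0.0461) and was lost without BRL37344 old 1, saline old 1, saline old 2 or any saline young library (adjusted p from 0.0604 to 0.160). It was also lost with a pseudocount of 1 (adjusted p = 0.0619), without the filter on level (adjusted p = 0.107), with equal column sums (adjusted p = 0.0518), in a fit of the 2 groups alone (adjusted p = 0.0501), with a replicate block (adjusted p = 0.0633) and without saline young 3 and BRL37344 old 2 together (adjusted p = 0.124). Over the pseudocounts its log2 change ran from 1.90 to 3.83. Aldh3a1 was under 1 RPKM in every young library, so it too entered the test through the old groups and supports nothing.

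Over the 9 libraries, the genes closest in pattern to Gstm2 were Enpp5, Selp, Jam2, Plscr2 and Galnt6, with Pearson r of log2 levels of 0.979, 0.977, 0.977, 0.976 and 0.975 among 7113 genes compared. Selp is 1 of the megakaryocyte and platelet markers summed above. It averaged 95.1 ± 38.1 RPKM in BRL37344 old, 127 ± 16.5 in saline old and 8.25 ± 2.16 in saline young, and Jam2, a junctional adhesion gene, averaged 13.5 ± 4.38 RPKM in BRL37344 old, 21.3 ± 3.46 in saline old and 5.65 ± 1.51 in saline young (SD, n = 3 each). The genes closest to Gstm1 were the pseudogene Gstm2-ps1, H2-Aa, Slc16a12, H2-Eb1 and Hpgds, with r of 0.968, 0.955, 0.954, 0.947 and 0.944. H2-Aa and H2-Eb1 encode chains of MHC class II molecules, and H2-Aa averaged 325 ± 156 RPKM in BRL37344 old, 176 ± 18.3 in saline old and 62.0 ± 15.2 in saline young (SD, n = 3 each). These likenesses describe 9 libraries that share a difference in age, and Gstm2-ps1 shares sequence with Gstm1, as given above. The closest 5 of Gstm2 and of Gstm1 had no gene in common. Lists of 5 among 7113 genes are too short for anything to be read from this.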

How the data were processed

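Libraries of HSC RNA were prepared by SMART-Seq v4 and Nextera XT and read on a NextSeq500, per the labels' protocols. STAR 2.5.3a, Trim Galore, Partek and mm10 are named in the submitters' processing notes, their roles not being given. The values deposited by the authors are RPKM, as judged from the table although it is named as counts: they are not whole, columns sum to 570571 to 604579, and an offset of 0.0001 per transcript was added. Of 46628 rows, 2 name no gene, and 27 names had become dates. Library depth came from the value steps of 5550 single-transcript genes, where 88.0% to 90.0% of low values lay within 0.05 of a whole read. A second deposited sheet with 18 unnamed columns of values was not used. Groups come from the titles alone: all descriptions carry 1 tag, HSC-Y-S, under titles naming old mice too, which leaves no way to check a title against it.

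Genes with 1 RPKM or more in 3 or more libraries were tested. limma 3.58.1 (R 4.3.3), with trended and robust moderation of variances, was run on log2(RPKM + 0.5) in 1 model of 9 libraries with 6 residual degrees of freedom, and p-values were adjusted by Benjamini-Hochberg over all genes tested, with a threshold of 0.05. Log2 changes on this scale understate those of low genes. Members and lists were chosen with earlier results of these data known. All members and tested further transferases are named, and of each other list the called genes and the 2 with the smallest p between saline old and saline young; Gclm, Nqo1 and the examples among markers and look-alike genes were chosen after their values were seen. Alternatives were other pseudocounts, filters and scalings, sample weights, a replicate block, the 2 groups alone and each library left out.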

Additional observations from a re-analysis of the deposited data

How the results depend on the processing

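Between saline old and saline young, the count of the 10 transferase genes past the test, 2 as reported, became 5 with sample quality weights (4 higher, 1 lower; Gstm1, Gstm5 and Mgst1 added) and 4 with the 2 groups alone (Gstm1 and Mgst1 added). For BRL37344 old against saline young it became 3 with weights (Gstm1 added) and 1, Gstm2, without the filter on level and with a replicate block. The further transferases gave 3 with weights in saline old against saline young (Gstt3 added) and 1 with the 2 groups alone in BRL37344 old against saline young. Without saline young 3 and BRL37344 old 2, chosen after the data were seen, Gstm2 alone was left in both comparisons with saline young (1 and 1) and no further transferase (0 and 0). Leaving out each library in turn gave 2 to 4, 0 to 1 and 1 to 2 transferase genes for saline old against saline young, BRL37344 old against saline old and BRL37344 old against saline young, and 1 to 2, 0 and 1 to 2 further transferases. Over all genes, 213, 0 and 104 as reported, the counts ranged over 96 to 586, 0 to 39 and 57 to 163 with a library left out. They were 140 without the filter for saline old against saline young, 1284, 3 and 169 with weights, 1 with a pseudocount of 0.1 and 2 with the 2 groups alone for BRL37344 old against saline old, and 82 and 42 without the 2 named libraries. For saline old against saline young, the split was 159 higher and 54 lower as reported, 516 higher and 768 lower with weights, and 170 higher and 416 lower without saline old 1. With the replicate block the counts were 174, 0 and 92. Whether replicate numbers pair the libraries cannot be decided from their values. Correlations of deviations from the group means ran from -0.0517 to 0.190 for same-numbered libraries. For other pairs they ran from -0.156 to 0.132, so the ranges overlap. The causes were not tested.

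Gstm2 passed in all 20 alternatives of both comparisons with saline young, and Gstt1 in 19 and 10 of 20. The small log2 change of Gsto1 between saline old and saline young was 0.06 as reported and -0.04 with quantile normalization. The 3 libraries a group and a 3.68-fold range of depth limit the precision.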
